A study of Sus scrofa with 6 samples.

Results

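Long unannotated loci of modest expression are stretches of the pig genome from which liver RNA was assembled although the annotation used by the study gave them no Ensembl gene identifier. They were chosen by 4 limits: no Ensembl gene identifier, a listed span of at least 10000 bases, a place on chromosomes 1 to 18, and a mean over the 6 libraries of at least 0.3 and below 15 FPKM (a level that divides the fragments of a transcript by its length and by the mapped total of the library). The limits were met by 9323 of the 121055 loci in the table, 98484 of which were unannotated. The mean level was therefore used to choose them, and their levels are given as a description only. The difference between IUGR and normal pigs was not itself a limit. The mean runs over both groups, however, so a locus listed at 0 in 1 group can meet the limit through the other alone.

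Liver RNA was measured in pigs of the PIC breed at 150 days of age, with 3 libraries of pigs with intrauterine growth restriction (IUGR, birth weight about 0.97 kg) and 3 libraries of normal pigs (about 1.49 kg). All the pigs were male, were kept in the same environment, had no genetic change, and were off feed before slaughter. Per the study, all animals of both groups also had an intravenous glucose tolerance test, with an infusion of dextrose, shortly before slaughter. Each library came from 1 pig, and IUGR here means naturally small piglets of their litters, not an induced restriction. The study chose its pigs as litter pairs, but the labels do not say which of the 6 sequenced pigs were littermates.

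Most of a mammalian genome outside the known genes can give rise to some RNA. Such RNA includes long noncoding transcripts, ends of known genes that run past the annotated stop, RNA from enhancers, introns that have not been removed, and genes that an incomplete annotation lacks. In the liver, where a few secreted protein genes take much of the RNA, these transcripts are usually of low level, and assemblers tend to break them into many pieces. The deposited table holds no sequence, and no genome of the Sscrofa10.2 build was at hand, so the loci are given by their coordinates in that build.

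What the table lists as a locus is mostly not the extent of the transcript itself. The table held 104716 distinct intervals and 0 of them overlapped another, whereas 9026 of the 9323 loci gave the same start and end as at least 1 other locus. The long unannotated loci lay on only 2015 intervals, and 633 intervals with at least 5 of them carried 6889. Of the 9323, 4613 shared the interval of a known locus (1109 intervals), 4413 shared an interval with unannotated loci only (609 intervals), and 297 stood alone. A shared span therefore belongs to the interval, and how long each locus within it is was not given. Distances to known loci are likewise gaps between intervals. Loci of 1 interval are not independent of each other, so counts are given with their number of intervals.

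Intervals ran from 10006 to 458302 bases, with a median over loci of 41799 bases. The loci that stood alone had a median of 19879 bases. The most crowded interval, chr11:60663275-60795896, carried 79 long unannotated loci and no known locus, and the nearest known locus with a symbol, SLITRK1, lay 494438 bases away. Median FPKM over its 79 loci was 2.103, 1.45 and 2.04 in IUGR 1, 2 and 3, against 2.2, 2.11 and 2.38 in normal 1, 2 and 3, so the groups did not overlap at the level of the interval median but lay within 1 FPKM of each other. The longest interval, chr5:39062119-39520420, was that of TRH-DE, and its long unannotated locus XLOC_090270 had 3.23, 1.69 and 1.62 FPKM in IUGR pigs, against 2.89, 3.78 and 0.911 FPKM in normal pigs, with full overlap.

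The level of the loci was low. Their mean FPKM had a median of 1.11, with a 5th percentile of 0.371 and a 95th percentile of 6.28. Under 1 FPKM lay 4231 loci (45.4%), and 703 reached 5 FPKM. Values above 0 in all 6 libraries were listed for 8763 loci (94.0%), against 91.3% of the 60217 unannotated loci under 10000 bases in the same FPKM range and 99.3% of the 7640 known loci of the same span and range. At the limits, XLOC_108107 on an interval of 10006 bases was just inside and XLOC_046235 on chr14:116017313-116027311 just outside. On the lower limit of level, XLOC_038207 with a mean of 0.3002 FPKM was inside and XLOC_012363 with 0.2999 FPKM outside. On the upper limit, XLOC_023514 with 14.97 FPKM was inside and XLOC_013507 with 15.02 FPKM outside. The number of fragments behind a value was not in the table, so the depth per locus is unknown and no counting interval can be given.

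The loci with the highest means were spread over the genome and did not differ beyond their spread. XLOC_023514, alone on chr10:65022152-65034666 and 51700 bases from CAMK1D, a calcium-dependent kinase, had 13.2, 18 and 21.1 FPKM in IUGR pigs, against 13.9, 10.19 and 13.5 FPKM in normal pigs. XLOC_078707 lay in the interval of PNPT1, a mitochondrial RNA-processing enzyme, with 12.6, 17.9 and 15.4 FPKM in IUGR pigs, against 19.6, 14.8 and 8.02 FPKM in normal pigs. The groups overlapped for both. Over the 10 loci with the highest means, adjusted p values of the limma test described below ran upwards from 0.760.

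Some of the loci carried the name of a reference transcript although their Ensembl gene field was empty. There were 140 such loci, among them 45 small nucleolar RNAs (which guide the chemical modification of other RNAs), 23 spliceosomal RNAs, 12 microRNAs, 28 with another symbol and 29 with an identifier only. Of those with another symbol, MAP3K7 (a kinase of inflammatory signalling), RNF43 (a ubiquitin ligase that dampens Wnt signalling), SSH2 (a cofilin phosphatase), TXLNA and TNFRSF21 each stood alone in their interval. Mean FPKM was 5.26 for MAP3K7, 6.95 for RNF43, 6.05 for SSH2, 12.8 for TXLNA and 10.21 for TNFRSF21, and their IUGR minus normal differences on the log2(FPKM + 1) scale were 0.08, 0.04, 0.17, -0.02 and 0.03. The class "unannotated" thus included named protein-coding genes, and 16 of the 297 loci that stood alone carried a reference name.

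Several facts about the 6 libraries bear on every comparison. Total mapped ratio, as the study's alignment summary gives it, was above 72% in IUGR 2, IUGR 3 and normal 1 and below it in IUGR 1, normal 2 and normal 3, so the higher set held 2 of 3 IUGR pigs and the lower set 2 of 3 normal pigs. Over the 9323 loci, IUGR 2 and IUGR 3 were the closest pair of libraries, with a Pearson r across loci of 0.871 against 0.749 to 0.814 for the other 14 pairs. The long unannotated loci took 0.591 to 0.631% of all FPKM in IUGR libraries, against 0.629 to 0.834% in normal libraries. Of the 7 hepatocyte markers, TTR, APOA1 and SERPINA1 had at least 942 FPKM in each library, ALB was listed at 0 in all 6, and TF was listed at 0 in the 3 libraries of higher mapped ratio and had 4780 to 7906 FPKM in the others. Their sum was 16617 to 19896 FPKM in IUGR pigs, against 14845 to 16551 FPKM in normal pigs. It includes TF in IUGR 1, normal 2 and normal 3 only, so these sums do not compare the groups. Summed markers of stellate cells were 70.0 to 89.3 FPKM in IUGR pigs, against 36.8 to 68.2 FPKM in normal pigs, with all 4 of 4 listed above 0. Summed endothelial markers (3 of 3) were 60.9 to 75.8 FPKM in IUGR pigs, against 27.9 to 62.7 FPKM in normal pigs. Singly, COL1A1, LRAT and PECAM1 had groups apart, whereas DCN, RGS5, VWF and STAB2 overlapped, and RGS5 was highest in normal 1 (10.44 FPKM). Summed Kupffer cell markers overlapped (70.55 to 84.37 FPKM in IUGR pigs, 69.66 to 127.6 FPKM in normal pigs). So did those of T and NK cells (13.83 to 17.83 and 13.7 to 18.1 FPKM) and cholangiocytes (7.772 to 10.19 and 3.945 to 9.804 FPKM). The part of these cell types in the results below was not tested, and in bulk tissue fewer cells of a type and less RNA per cell cannot be told apart.

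The question of the design was whether these loci differ between livers of IUGR and normal pigs. Each locus was tested with limma on log2(FPKM + 1), over all 95962 loci of the table with a mean of at least 0.3 FPKM, and was called at a Benjamini-Hochberg adjusted p under 0.05. Of the 9323 long unannotated loci, 1 was called higher in IUGR pigs and 0 lower, against 0.00208% of all tested loci called higher and 0.00521% called lower. At an unadjusted p under 0.05, 205 loci (2.199%, on 155 intervals) were higher in IUGR pigs, against 2.85% of all tested loci, and 528 (5.66%, on 290 intervals) were lower, against 4.49% of all. The groups did not overlap for 396 loci that were higher in IUGR pigs (4.25%, against 5.28% of all tested loci) and 853 that were lower (9.15%, against 7.47%). These shares lay near the background in both directions. With 3 pigs against 3, an exact permutation test on a single locus cannot give a two-sided p under 0.1.

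The called locus was XLOC_052810, which carries the name of the small nucleolar RNA SNORA70 and lies in the interval of KANSL1L at chr15:124563202-124740175. It had 3.63, 4.66 and 4.46 FPKM in IUGR pigs and was listed at 0 in all 3 normal pigs. Its mean of 2.12 FPKM, by which it met the limit of level, thus came from the IUGR pigs alone. The groups did not overlap (limma, adjusted p = 0.018, unadjusted p = 7.5e-07). Since normal pigs were listed at 0 no fold is given. KANSL1L itself had 223, 241 and 206 FPKM in IUGR pigs, against 325, 92.7 and 167 FPKM in normal pigs, and its groups overlapped. The call was kept in 11 of 20 alternatives and lost in 9, among them those that left out IUGR 2 (adjusted p = 0.0946), IUGR 3 (0.106), normal 1 (0.109), normal 2 (0.0613) or normal 3 (0.0683), averaged IUGR 2 and IUGR 3 (0.0864), added the mapped ratio as a factor (0.109) or scaled the libraries to a common median (0.0544). The lowest adjusted p over the 20 was 0.00402, and the highest was 0.152.

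Other small nucleolar RNA loci showed similar on-and-off values. XLOC_074143, labelled SNORA22, had 2.76, 7.10 and 10.3 FPKM in IUGR pigs and was listed at 0 in the normal pigs (adjusted p = 0.329). XLOC_101223, labelled SNORA79 and 2392 bases from PARP2, had 14.7, 34.2 and 23.0 FPKM in IUGR pigs, against 8.10, 0 and 3.51 FPKM in normal pigs (adjusted p = 0.565). In the opposite direction, XLOC_087368, labelled SNORA25 in the interval of CCT2, was listed at 0 in all IUGR pigs, against 24.4, 0 and 14.8 FPKM in normal pigs (adjusted p = 0.647). Of the 45 small nucleolar RNA loci, 6 were higher and 1 lower at an unadjusted p under 0.05, against 2.85% and 4.49% of all tested loci. The libraries were made from RNA with poly(A) tails, which mature small nucleolar RNAs mostly lack. The table lists at 0 in all normal pigs and above 0 in all IUGR pigs 3 of the long unannotated loci, and 2 the other way round. These loci met the limit of mean level through 1 group only. The share of all tested loci with such values was not counted, so both counts are a description. No depth is known for these zeros, so they are given as listed.

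**Figure D1:**
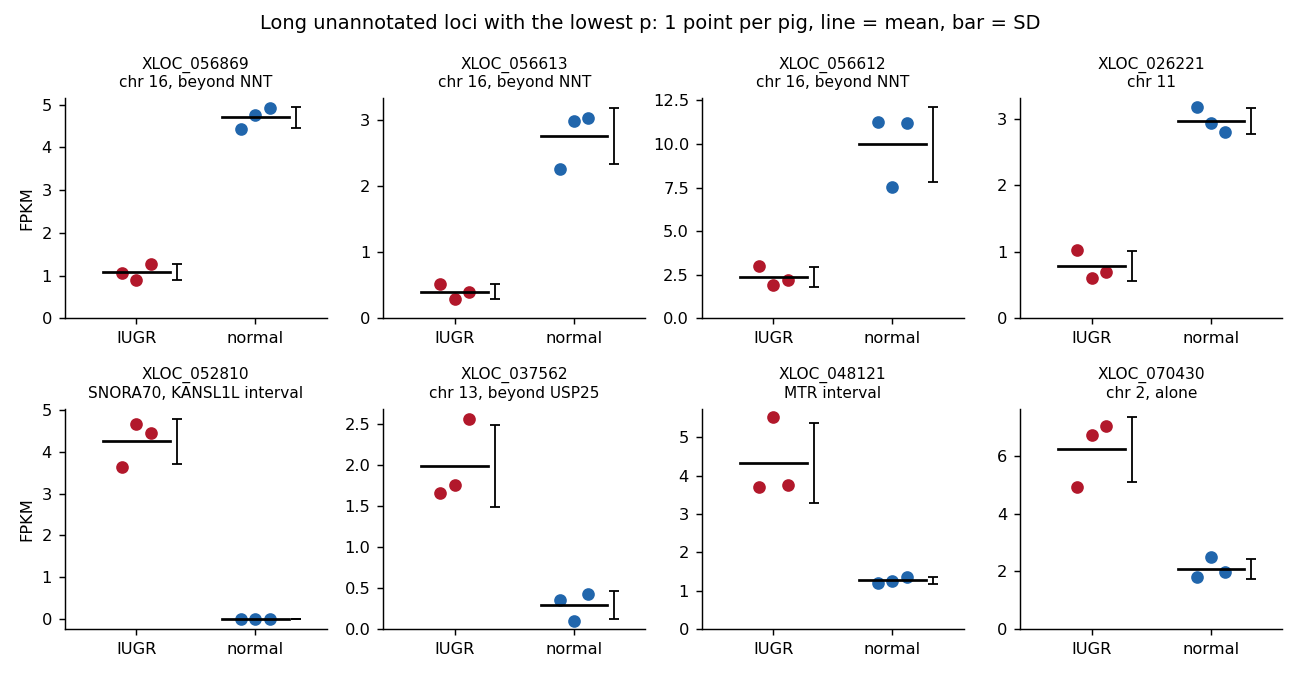
FPKM of 8 long unannotated loci picked from the 10 with the lowest p in each direction, IUGR pigs (red) left of normal pigs (blue). Each panel has 1 point per pig, the mean as a line and the SD as a bar (n = 3 each). XLOC_074143, higher in IUGR pigs with a lower p than XLOC_037562, is not drawn. In all 8 panels the groups do not overlap, and only XLOC_052810, listed at 0 in the normal pigs, passed the adjusted threshold (0.018).

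Among the loci that were lower in IUGR pigs, 9 of the 10 with the lowest p came from a stretch of chromosome 16 beyond NNT. NNT, the mitochondrial transhydrogenase that makes NADPH, is followed by a long gene-poor region in which FGF10, a growth factor of lung and limb buds, is the only known gene tested. XLOC_056869 at chr16:30485064-30515032 had 1.06, 0.899 and 1.27 FPKM in IUGR pigs, against 4.43, 4.76 and 4.93 FPKM in normal pigs. All the IUGR pigs lay below all the normal pigs, and means were 1.08 ± 0.188 and 4.71 ± 0.249 FPKM (SD, n = 3 each). The difference was -1.46 ± 0.18 (SE) on the log2(FPKM + 1) scale, and its adjusted p of 0.276 did not pass the threshold. XLOC_056613 and XLOC_056612 at chr16:29795508-29811484 gave the same adjusted picture, with p of 0.276 and 0.331. XLOC_056613 had 0.519, 0.287 and 0.401 FPKM in IUGR pigs, against 2.26, 2.98 and 3.02 FPKM in normal pigs. XLOC_056612 had 3.02, 1.88 and 2.22 FPKM in IUGR pigs, against 11.3, 7.504 and 11.2 FPKM in normal pigs. In each the 3 IUGR pigs lay well below the 3 normal pigs. The other of the 10 was XLOC_026221 on chr11:16459535-16490352, 115966 bases from CCDC70, with 1.03, 0.605 and 0.701 FPKM in IUGR pigs, against 3.18, 2.94 and 2.80 FPKM in normal pigs (difference -1.16, adjusted p = 0.354).

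The stretch held 28 long unannotated loci on 3 intervals, and it was singled out after their values were seen. All 28 lay below 0, at -1.70 to -0.47 on the log2(FPKM + 1) scale with a median of -1.03. Of these, 27 had an unadjusted p under 0.05 (4.49% of all tested loci were lower at that mark). The groups did not overlap for 25 (7.47% of all tested loci were lower without overlap). None was called, as adjusted p ran between 0.276 and 0.688. Median FPKM over the 28 was 0.597, 0.324 and 0.435 in IUGR 1, 2 and 3, against 2.19, 1.96 and 2.45 in normal 1, 2 and 3. The first interval (10 loci) lay 38855 bases beyond NNT and had a median difference of -1.27, the second, chr16:30013213-30027035 (9 loci), -0.79, and the third, chr16:30485064-30515032 (9 loci), -1.03. The median of the 28 was -1.18 within the higher mapped ratio set (IUGR 2 and IUGR 3 against normal 1) and -0.89 within the lower set (IUGR 1 against normal 2 and normal 3), and 28 of 28 were negative in each. Leaving out any 1 pig kept all 28 negative, with medians of -1.13 to -0.96 and 25 to 27 loci at an unadjusted p under 0.05.

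The pattern was not limited to the long intervals. Over the whole stretch 359 loci were tested, of which 344 had a negative difference, 297 were lower at an unadjusted p under 0.05 and 1 was higher, with a median of -0.78. The other 329 unannotated loci of this stretch had medians of 0.517, 0.244 and 0.332 FPKM in IUGR 1, 2 and 3, against 1.21, 1.36 and 1.482 FPKM in normal 1, 2 and 3. FGF10 had 2 known loci on its interval, and XLOC_056789 had 0.401, 0.248 and 0.415 FPKM in IUGR pigs, against 1.41, 0.735 and 0.785 FPKM in normal pigs (difference -0.53, adjusted p = 0.631). NNT did not follow. It had 75.8, 105 and 97.4 FPKM in IUGR pigs, against 83.8, 54.2 and 56.0 FPKM in normal pigs, and its difference was 0.53 (adjusted p = 0.760). Correlation across the 6 libraries between XLOC_056613 and NNT was -0.84, as a description over 6 libraries that hold both groups.

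To place the stretch in the genome, unannotated loci were counted in windows of 250000 bases with at least 20 tested loci, of which there were 1111. The median window had 3.13% of its loci lower in IUGR pigs at an unadjusted p under 0.05. The 4 windows from 29750001 to 30750000 on chromosome 16 had 86.6, 93.0, 89.0 and 71.7%, which placed them at ranks 4, 1, 3 and 6 of 1111. In the other direction the highest share was 88.9%, on chr13:115250001-115500000, a window that held none of the long loci. More than 50% of loci were lower in 13 windows and higher in 4. Loci of a window are neighbours and may be pieces of 1 transcript, so the windows are a description without a test.

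**Figure D2:**
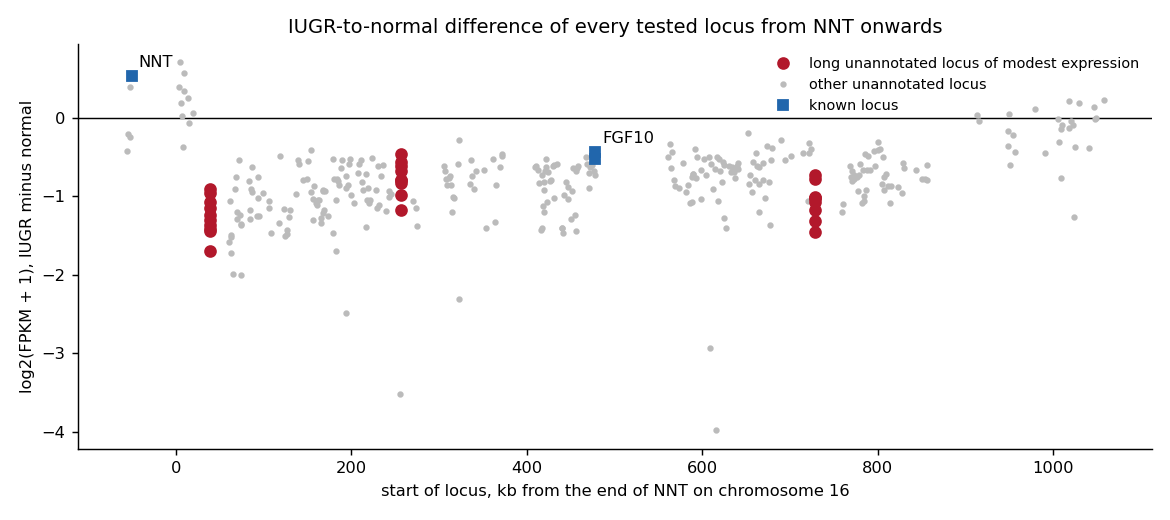
Difference in log2(FPKM + 1), IUGR minus normal, of every tested locus from NNT onwards against its start in kb from the end of NNT, with the 28 long unannotated loci in red, other unannotated loci in grey and known loci as blue squares. From the first red interval to past the third the points lie below 0, with the 28 long loci between -1.70 and -0.47, while NNT lies above 0 at 0.53 and the last loci of the stretch lie around 0.

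Upstream on the same chromosome lay the interval of GHR, the growth hormone receptor, at chr16:28691847-28869651. Its 8 long unannotated loci had a median of 0.388, 0.284 and 0.363 FPKM in IUGR 1, 2 and 3, against 0.433, 2.12 and 1.05 FPKM in normal 1, 2 and 3. All 8 lay below 0 (median -0.65 on the log2 scale), 5 at an unadjusted p under 0.05 and 6 without overlap, against 4.49% and 7.47% of all tested loci. The lowest adjusted p was 0.583. Without IUGR 2 only 3 had an unadjusted p under 0.05. GHR itself had 85.2, 131 and 117 FPKM in IUGR pigs, against 127, 72.04 and 59.2 FPKM in normal pigs, a difference of 0.42 (adjusted p = 0.832). Within the higher mapped ratio set the median of the 8 loci was -0.24 with 6 of 8 negative, and within the lower set -0.72 with 8 of 8 negative.

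Further intervals were picked by their median difference, that is, after their values were known, and no locus on them was called. Of all tested loci, 4.49% were lower at an unadjusted p under 0.05. The interval of ADAD1, a gene known for its testis expression in mouse, at chr8:108785547-108871832 held 18, with medians of 0.945, 0.872 and 1.13 FPKM in IUGR pigs, against 2.63, 1.88 and 1.74 FPKM in normal pigs. All 18 lay below 0, 16 at an unadjusted p under 0.05 (9 without IUGR 1 or without normal 1), with medians of -0.69 and -0.67 within the higher and the lower mapped ratio set. The interval of ADIPOR2, an adiponectin receptor, at chr5:70997335-71059498 held 14, with medians of 4.01, 2.13 and 2.52 FPKM in IUGR pigs, against 4.34, 5.37 and 6.74 FPKM in normal pigs. All 14 lay below 0, 9 of them at an unadjusted p under 0.05 (4 without IUGR 2 or normal 3, 3 without IUGR 3), while ADIPOR2 had 100.2, 104 and 95.2 FPKM in IUGR pigs, against 78.9, 82.2 and 78.0 FPKM in normal pigs. The interval chr17:5575140-5606553, which lies 48867 bases from the phosphatase gene MTMR7, held 15 with medians of 0.211, 0.110 and 0.193 FPKM in IUGR pigs, against 1.496, 0.846 and 0.485 FPKM in normal pigs. Its median difference was -0.66, with 9 of 15 at an unadjusted p under 0.05 (5 without IUGR 1, IUGR 2 or normal 1, 14 without normal 3). The median was -0.38 without normal 1 and -0.31 within the lower mapped ratio set.

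Other intervals had their IUGR pigs above the normal pigs. On chr13:190571293-190603777, 286514 bases from the deubiquitinase gene USP25, 14 loci had medians of 0.624, 1.35 and 2.11 FPKM in IUGR 1, 2 and 3, against 0.259, 0.156 and 0.573 FPKM in normal 1, 2 and 3. All 14 lay above 0 (median 0.88 on the log2 scale) and 10 had an unadjusted p under 0.05, where 2.85% of all tested loci were higher. The median was 1.19 within the higher mapped ratio set and 0.33, with 3 of 14 negative, within the lower set, and it was also 1.19 without IUGR 1. Its leading locus XLOC_037562 had 1.66, 1.75 and 2.57 FPKM in IUGR pigs, against 0.359, 0.103 and 0.420 FPKM in normal pigs (difference 1.21, adjusted p = 0.354), and its neighbour XLOC_037566 had 1.40, 4.51 and 4.36 FPKM in IUGR pigs, against 0.436, 0.276 and 0.691 FPKM in normal pigs. The groups of both were apart.

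XLOC_048121 lay in the interval of MTR, methionine synthase of the folate cycle, at chr14:58489008-58627088, and had 3.71, 5.53 and 3.75 FPKM in IUGR pigs, against 1.19, 1.25 and 1.36 FPKM in normal pigs (difference 1.22, adjusted p = 0.354). MTR had 21.6, 24.3 and 22.4 FPKM in IUGR pigs, against 19.7, 17.4 and 15.3 FPKM in normal pigs, so the unannotated locus was the more unequal of the pair. XLOC_070430 stood alone at chr2:8740644-8770337, with 4.95, 6.74 and 7.04 FPKM in IUGR pigs, against 1.81, 2.49 and 1.97 FPKM in normal pigs (difference 1.22, adjusted p = 0.364). XLOC_050117 lay in the interval of CYP2C42, a cytochrome P450, and had 1.62, 3.34 and 2.74 FPKM in IUGR pigs, against 0.890, 0.695 and 0.305 FPKM in normal pigs (adjusted p = 0.484). Others of the 10 loci with the lowest p that were higher in IUGR pigs, XLOC_080980 (258132 bases from PTDSS1), XLOC_084824 (248470 bases from GGH) and XLOC_033895 (on the interval of PTPRG, a receptor phosphatase), had differences of 1.25, 0.94 and 0.68, and adjusted p values of 0.413, 0.507 and 0.508.

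**Figure D3:**
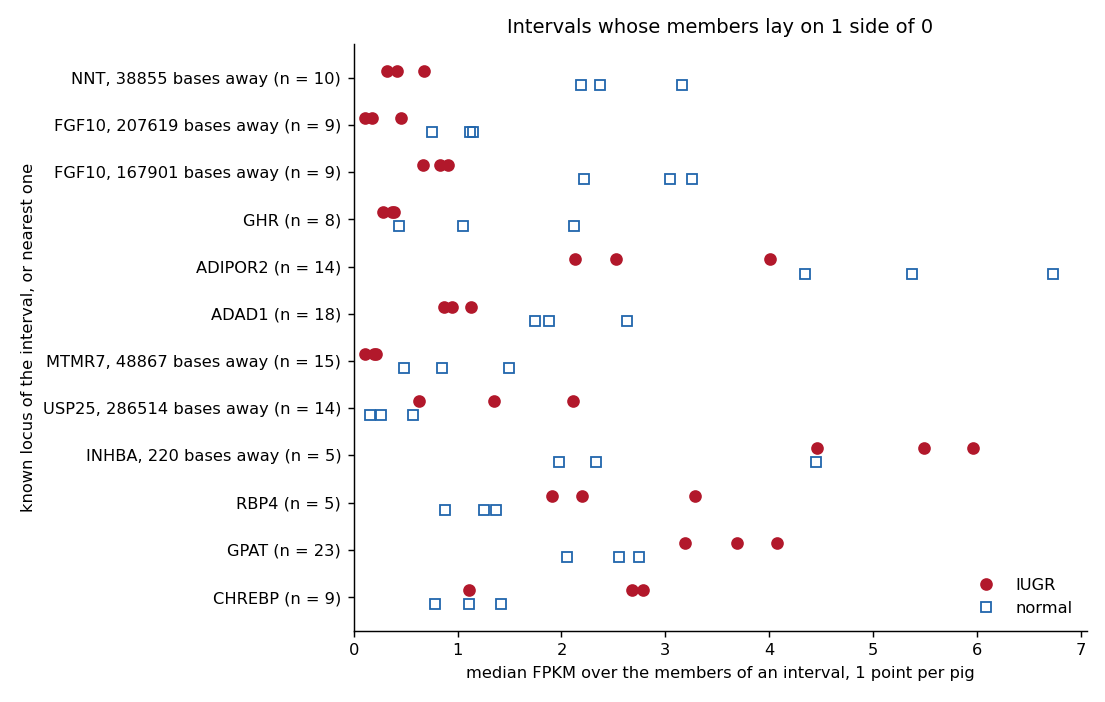
Median FPKM of the long unannotated loci of 12 intervals in each pig (IUGR as filled red circles, above normal as open blue squares), named by the known locus on the interval or the nearest one, with n loci. On the intervals of ADAD1, ADIPOR2, GHR and MTMR7 and beyond NNT all IUGR pigs lie left of all normal pigs. On those of USP25, RBP4, GPAT and INHBA all IUGR pigs lie to the right, and on that of CHREBP the groups overlap. The closest pigs of the 2 groups nearly meet for GHR (0.388 and 0.433 FPKM) and INHBA (4.466 and 4.453 FPKM).

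Liver genes from 7 lists were searched for long unannotated loci on their own interval. Of the genes found in the table, 3 of 37 for hepatocyte secreted proteins, 4 of 34 transcription factors and nuclear receptors, 3 of 27 for drug and steroid metabolism, 7 of 27 for glucose and glycogen metabolism, 1 of 35 for lipid metabolism, 4 of 36 for amino acid and nitrogen metabolism and 3 of 19 growth and imprinted genes shared an interval with such a locus. None of their 115 loci was called, and at an unadjusted p under 0.05 6 were higher and 7 lower in IUGR pigs, against 2.85% and 4.49% of all tested loci. The interval of RBP4, the plasma carrier of retinol, held 5 loci with medians of 2.202, 1.91 and 3.29 FPKM in IUGR pigs, against 1.37, 0.881 and 1.25 FPKM in normal pigs, and all 5 lay above 0 (median 0.53, 3 at an unadjusted p under 0.05). Only 1 was left there without IUGR 1, IUGR 3, normal 2 or normal 3. RBP4 itself had 2931, 4302 and 3874 FPKM in IUGR pigs, against 3816, 2222 and 2178 FPKM in normal pigs.

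By contrast, the loci by genes of glucose metabolism showed little. On the interval of GBE1, the glycogen branching enzyme, 19 loci had a median difference of 0.03, and on that of UGP2, which makes UDP-glucose, 9 loci had a median of 0.13, with 0 at an unadjusted p under 0.05 in either. The 3 loci by SLC2A2, the main glucose transporter of hepatocytes, had a median of -0.24 and the 6 by FOXA2, a liver transcription factor, -0.19, again with 0 past that mark. By PROX1, another liver transcription factor, 7 loci had a median of -0.34 with 1 lower. Beside the lists, the interval of GPAT, a glycerol-3-phosphate acyltransferase of triglyceride synthesis, held 23 loci with medians of 4.07, 3.19 and 3.69 FPKM in IUGR pigs, against 2.56, 2.06 and 2.75 FPKM in normal pigs. All 23 lay above 0 (median 0.48, 8 at an unadjusted p under 0.05, 4 without IUGR 3 and 5 without normal 2), and 3 or 4 of them lay below 0 where libraries were scaled to a common median or sum. In contrast, GPAT had 42.6, 104 and 102 FPKM in IUGR pigs, against 145, 35.7 and 33.0 FPKM in normal pigs, with full overlap.

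The levels of the loci had little in common with those of the known gene next to them. Over the 6 libraries, Pearson's r between a locus and the nearest known locus had a median of 0.00053 for the 4609 loci on the same interval where it could be computed, with quartiles of -0.40 and 0.42. The median was 0.16 at 1 to 5000 bases (508 loci), 0.05 at 5000 to 50000 bases (1611 loci) and 0.01 beyond 50000 bases (1786 loci). Where an interval held more than 1 known locus, that with the highest mean FPKM was taken for r and for the level. Loci on the interval of a known gene had a median level of 10.8% of that known locus. Of the 297 loci that stood alone, r could be computed for 246, with a median of 0.55, quartiles of 0.06 and 0.82, and 79.7% above 0. These r rest on 6 libraries that share depth, mapped ratio and group, so they are given as a description.

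**Figure D4:**
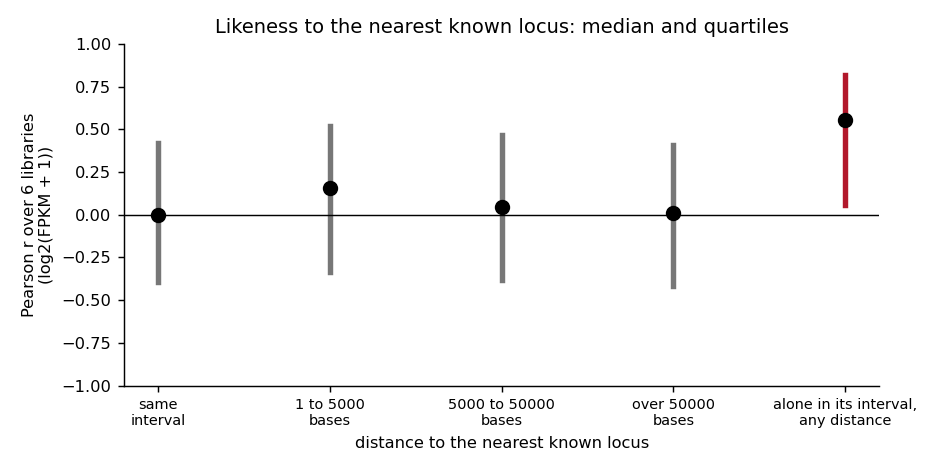
Pearson's r over the 6 libraries between a long unannotated locus and its nearest known locus, as median (dot) and quartiles (bar), by distance and, in red, for loci that stood alone in their interval at any distance. Medians are at or near 0 (0.00053 to 0.16) in all 4 distance classes and 0.55 for the loci that stood alone.

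Loci of 1 interval resembled each other more. Over the 633 intervals with at least 5 loci, the median r between loci of an interval had a median of 0.33 over intervals, and it was above 0.8 in 37 intervals. Of the variance of the IUGR minus normal difference, 59.2% lay between intervals, or 48.5% where only intervals with at least 5 loci were taken. All differences were negative on 67 of the 633 intervals and positive on 36. With 1 value per interval of unannotated loci, limma was fitted over 71633 intervals as an alternative chosen after the data were seen. Of the 2015 intervals 0 were called, against 0.00% of all intervals called higher and 0.00698% lower. At an unadjusted p under 0.05, 62 of the 2015 were higher and 43 lower, against 2.56% and 4.85% of all intervals. The share that was lower thus lay below that of all intervals, and the share that was higher somewhat above it. Counted by locus the order was the other way, with 205 higher and 528 lower. Without IUGR 1, 2 intervals were called higher, and without normal 2, 1 was called lower. The 3 intervals beyond NNT had adjusted p values of 0.338, 0.390 and 0.357 in that fit.

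As a list, the 9323 loci had a median IUGR minus normal difference of -0.06 on the log2(FPKM + 1) scale, against -0.01 over all tested loci (0.01 with quantile scaling), -0.06 over the short unannotated loci and 0.14 over the known loci of the same span and range (-0.01 with the libraries scaled to equal sums). The loci that stood alone had a median of 0.16, with 77.1% of 297 higher in IUGR pigs, which was near that of the known loci of the same span and range (77.6%). The loci on the interval of a known gene had -0.08, with 38.0% higher, and those on an interval of unannotated loci -0.05, with 42.3% higher. The 281 loci that stood alone without a reference name had a median of 0.17. Within the mapped ratio sets the medians of the 9323 were -0.04 (higher) and -0.05 (lower), and those of the loci that stood alone -0.02 and 0.23. Scaling the libraries to the median of known loci or to equal sums moved the median of all tested loci to -0.12 and -0.13, and relative to it the 9323 stood at -0.05 and -0.04 and the loci that stood alone at 0.17 and 0.16. Unadjusted for that shift, the loci that stood alone had medians of 0.05 and 0.04 with these scalings, with 57.6% and 55.2% higher in IUGR pigs, and the known loci of the same span and range had 0.01 and -0.01, with 51.8% and 47.3% higher.

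**Figure D5:**
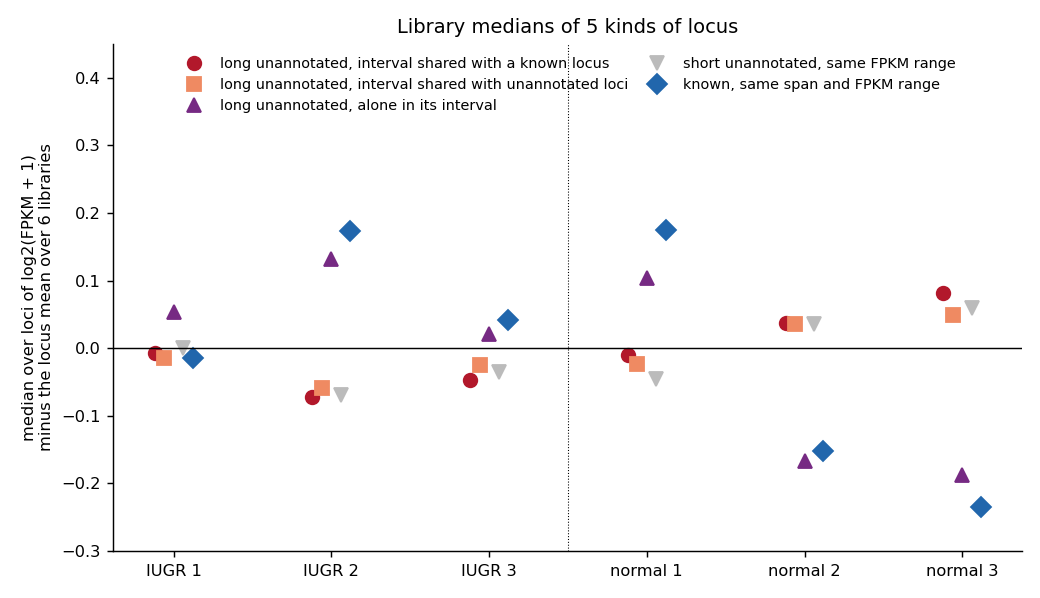
Median over loci of log2(FPKM + 1) minus the mean of the locus over the 6 libraries, for 5 kinds of locus in each library, IUGR pigs left of normal pigs. Loci that stood alone (purple triangles) run with the known loci (blue diamonds), high in IUGR 2 and normal 1 (0.13 and 0.10) and low in normal 2 and normal 3 (-0.17 and -0.19), whereas loci on shared intervals run with the short unannotated loci.

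The same loci were compared between the libraries of higher and lower mapped ratio, a technical split that crosses the groups. No long unannotated locus was called by limma in either direction, against 0.00208% of all tested loci higher and 0.0104% lower. At an unadjusted p under 0.05, 330 loci (3.54%, against 7.00% of all tested loci) were higher and 606 (6.50%, against 6.24%) lower in the higher ratio set. Of the 9323 loci, the sets did not overlap for 542 that were higher and 985 that were lower, against 11.6% and 9.77% of all tested loci. The share that was higher lay well below that of all tested loci, and the share that was lower somewhat above it. The median difference was -0.07 over the 9323 loci, 0.18 over those that stood alone and 0.32 over all known loci. The medians of all known and of short unannotated loci (-0.10) lay further apart in this split than between IUGR and normal pigs, where they were 0.15 (-0.00254 with equal sums) and -0.06.

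The lowest p of this split belonged to XLOC_077363 on chr3:22202581-22227938, which shares the interval of a known locus without a symbol. It had 1.5, 2.2 and 1.3 FPKM in IUGR 2, IUGR 3 and normal 1 (higher ratio) and was listed at 0 in IUGR 1, normal 2 and normal 3 (lower ratio, adjusted p = 0.182). XLOC_031402, labelled SNORA11 and on the interval of ZNHIT3, came next, with 7.88, 31.6 and 7.98 FPKM in the higher ratio set and 0 in the lower set (adjusted p = 0.277). Its adjusted p was 0.0227 without IUGR 3 and 0.0252 with a pseudocount of 0.1. Both loci had every library of the lower set at 0. The 5 loci with the lowest p among those that were lower in the higher ratio set all lay on the interval of LPGAT1 or on an interval 302 bases from it. LPGAT1 is a lysophospholipid acyltransferase. On chr9:144423327-144454892, the interval 302 bases away, lay 15 long unannotated loci, and 8 lay on the interval of LPGAT1 itself. XLOC_114013 had 4.99, 5.19 and 6.26 FPKM in the higher ratio set, against 13.9, 17.9 and 19.1 FPKM in the lower set, a difference of -1.46 (adjusted p = 0.277). XLOC_114035 on the interval of LPGAT1 had 2.56, 3.15 and 2.29 FPKM in the higher ratio set, against 7.07, 8.61 and 8.85 FPKM in the lower set. The sets were apart for both. LPGAT1 itself had 83.6, 77.7 and 138 FPKM in the higher set, against 129, 135 and 101.1 FPKM in the lower set, with overlap. In the opposite direction, XLOC_077948, alone on chr3:51428648-51454893 and 14871 bases from NCK2, an adaptor protein gene, had 10.3, 6.90 and 5.93 FPKM in the higher set, against 2.19, 1.57 and 1.54 FPKM in the lower set (adjusted p = 0.2997).

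A number of intervals differed between single pigs rather than between groups. On chr1:34343240-34361244, 77838 bases from the ribosomal protein gene RPS12, the 5 long loci had medians of 1.36, 16.8 and 19.3 FPKM in IUGR 1, 2 and 3, against 21.0, 0.435 and 11.3 FPKM in normal 1, 2 and 3. IUGR 1 and normal 2 were the low pigs, and the groups overlapped. On chr16:81947078-81974511, 63067 bases from MED10, a subunit of the Mediator complex, 11 loci had medians of 1.08, 1.59 and 1.44 FPKM in IUGR pigs, against 0, 0 and 2.06 FPKM in normal pigs. Normal 1 was listed at 0 for 8 and normal 2 for 10 of the 11 loci, with no value above 0.105 and 0.169 FPKM, and normal 3 had the highest median. On chr15:78225903-78245762, 125994 bases from FIGN, 5 loci had a median of 0 in all 3 IUGR pigs and in normal 3, against 2.72 and 2.65 FPKM in normal 1 and normal 2.

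The relative spread between pigs was larger for these loci than for known ones of the same range, but the levels were unlike. The mean FPKM had a median of 1.11 over these loci and 3.40 over those known loci, and the spread was not compared at equal level. The median coefficient of variation was 31.0% in IUGR pigs and 34.2% in normal pigs, against 15.2% in IUGR pigs and 28.4% in normal pigs for the known loci of the same span and FPKM range. A status other than OK in at least 1 library was listed for 14 of the 9323 loci, 13 of them with 0 in IUGR 3 on the intervals of DSG2 (10 loci) and HIPK3 (3 loci). The other, XLOC_112551 on the interval of PON1, had 56.0 FPKM in normal 2 and 0 elsewhere. Over chromosomes 1 to 18 the median IUGR minus normal difference of the loci ran between -0.12, on chromosome 11, and -0.01, on chromosome 4.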

How the data were processed

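Liver RNA of 6 pigs was sequenced, 1 library per pig. Per the labels and the study's methods, the authors aligned reads with TopHat2 2.0.14 and Bowtie2 2.0.6 to build Sscrofa10.2, assembled transcripts with Cufflinks 2.2.1 and deposited FPKM values from Cuffdiff 2.1.1 with a status per value. The text of the study names another build, so the labels were followed. No counts were used, the depth per locus is unknown, and 0 columns of other samples were present. Coordinates count from 1.

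Loci were taken by their limits of identifier, span, chromosome and mean FPKM. The loci, their neighbours and the gene lists were chosen with earlier results of these data known. With limma 3.58.1 (R 4.3.3), log2(FPKM + 1) of all 95962 loci with a mean of at least 0.3 FPKM was fitted with a trend of the variance on the mean. Tests were two-sided, and p values were adjusted by Benjamini-Hochberg across the whole set. The scale understates differences of low loci. Named loci were the 10 lowest p in each direction, called loci, the 10 highest means, the 8 longest, the 5 lowest p in each direction for mapped ratio, and loci at each limit. Their neighbours were named with them. Intervals, reference-named loci, the stretch beyond NNT and windows were chosen after values were seen. Alternatives changed the pseudocount, filter, scaling, trend, loci tested, factors and pigs. The fit was tested on simulated data. Labels do not say that replicates share litters. Same-numbered pigs did not deviate together, but they lay in opposite mapped ratio sets, so this cannot show whether they were littermates. P values measure the spread between these pigs. Python 3.11.15 with pandas 2.3.3 was used. Some items withheld from the material are not reported here.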

Additional observations from a re-analysis of the deposited data

How the results depend on the processing

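The number of long unannotated loci called higher in IUGR pigs was 1, and it was 0 with IUGR 2 and IUGR 3 averaged, with mapped ratio as a second factor and with median scaling, 2 with a pseudocount of 0.01 or 0.1, and between 0 and 3 when 1 pig was left out. The number called lower was 0, or up to 1 when 1 pig was left out. The median IUGR minus normal difference of -0.061 was -0.162 with median scaling, -0.171 with sum scaling, -0.119 and -0.109 with pseudocounts of 0.01 and 0.1, -0.0223 with quantile scaling, and -0.0821 to -0.0384 when 1 pig was left out. Between mapped ratio sets, 1 locus was called higher with a pseudocount of 0.1 and 0 to 2 when 1 pig was left out, against 0, and the median of -0.0713 was -0.263 with median, -0.195 with sum and -0.00634 with quantile scaling, -0.135 with a pseudocount of 0.1, and -0.0895 to -0.053 when 1 pig was left out. The counts at an unadjusted p under 0.05 (205 higher, 528 lower in IUGR pigs) were 92 and 626 with median, 92 and 821 with sum, and 284 and 435 with quantile scaling, while all 95962 tested loci had 1473 and 4939, 1364 and 6587, and 3513 and 3625 in these scalings, against 2739 and 4310 without. The median of the 9323 loci and the differences of the loci named for their low p kept their sign in the settings run for each. Those low-p loci were picked for large differences. For the other named loci, such as the highest means and the longest spans, signs over the settings are not given. Other medians did not: the known loci of the same span and range (0.135) had -0.0097 and all known loci (0.154) -0.00254 with sum scaling, and all tested loci (-0.0149) had 0.0127 and the long loci over 50000 bases from a known locus (-0.0254) 0.0179 with quantile scaling. The causes of the moves were not tested. The replicate number was used as a block in 1 limma fit: it called 0 loci higher, XLOC_052810 having an adjusted p of 0.152. Same-numbered pigs had a correlation of deviations over the loci of -0.162, -0.0405 and -0.0984. Each same-numbered pair was split between the higher and the lower mapped ratio set, so these correlations cannot show whether the numbers pair littermates. The depth per locus is unknown, so what depth limits cannot be given.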

Other observations

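Outside the long intervals, other windows of 250000 bases held unannotated loci with similar values, and these were chosen after their values were seen. On chromosome 9 at 95250001 to 95500000, 64 loci, none of them long, had medians of 2.25, 0.138 and 0.170 FPKM in IUGR 1, 2 and 3, against 1.95, 15.9 and 6.24 FPKM in normal 1, 2 and 3, with 59 lower at an unadjusted p under 0.05. IUGR 1 overlapped normal 1 there. On chromosome 13 at 115250001 to 115500000, 27 loci had medians of 1.10, 2.59 and 3.59 FPKM in IUGR pigs, against 0.442, 0.157 and 0.415 FPKM in normal pigs, and the groups did not overlap.

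Just outside the span limit, XLOC_046235 at 9999 bases had 0.571, 0.244 and 0.0662 FPKM in IUGR pigs, against 2.60, 4.50 and 8.80 FPKM in normal pigs (difference -2.18, limma adjusted p = 0.354). XLOC_103010, labelled TMP-SLA-5 after a gene of the pig major histocompatibility complex and on the interval of SLA-1, had 21.7, 15.5 and 15.1 FPKM in IUGR pigs, against 9.42, 2.87 and 1.87 FPKM in normal pigs (difference 1.90, adjusted p = 0.543). Reads of such near-identical genes may be split between them, so its value is uncertain.

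On the interval of CHREBP, a transcription factor that responds to carbohydrate, 9 long unannotated loci had medians of 1.11, 2.68 and 2.78 FPKM in IUGR pigs, against 1.41, 0.785 and 1.11 FPKM in normal pigs. All 9 differences were positive with a median of 0.50, and 1 had an unadjusted p under 0.05, or 8 without IUGR 1. Within the higher mapped ratio set the median was 0.44, and within the lower set it was 0.08 with 3 of 9 negative. Beside INHBA, a subunit of activin, 5 loci lay on an interval 220 bases away, with medians of 4.47, 5.50 and 5.97 FPKM in IUGR pigs, against 1.98, 2.34 and 4.45 FPKM in normal pigs. Their median difference was 0.74, with 4 at an unadjusted p under 0.05, 0 with median or sum scaling, 0 without IUGR 3 or normal 1, and 1 without IUGR 2 or normal 2.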
